A study of Mus musculus with 6 samples.

Results

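The 39 genes described here are interferon-stimulated genes, a set made of antiviral effectors, sensors of foreign nucleic acid and transcription factors of the STAT and IRF families. They were taken by symbol from the table of liver gene counts, and all 39 had a row among its 32212 rows. All 39 also passed the filter on low counts, so no member was lost before testing. The study removed chromogranin A (CgA), a prohormone of neuroendocrine secretory granules encoded by Chga, and used the knockout as a model of healthy aging. Poly(A) RNA was sequenced from 3 WT and 3 CgA-KO livers, 1 library per mouse, and the comparison asks how the aged livers of the genotypes differ. All 6 mice were males of 2 yr on a C57BL/6 background, kept on normal chow with no further treatment or allele named in the labels.

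Type I interferons are cytokines that cells release when they sense viral or microbial nucleic acid. They bind a receptor made of IFNAR1 and IFNAR2, whose kinases JAK1 and TYK2 phosphorylate transcription factors such as STAT2. STAT2 joins IRF9 in the complex ISGF3, which binds the interferon-stimulated response element in front of its target genes. Interferon gamma acts through another element, the gamma-activated site. Most of the 39 genes answer to more than 1 kind of interferon, and several are also expressed at rest in macrophages and other leukocytes of the liver.

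The promoters of the set show this element. RefSeq promoters of GRCm38.p6, from 250 bases before to 50 bases after the start, were matched for 29 of the 39 genes, with 37 promoters in all. Dhx58, Zbp1, Oas2, Mx1, Mx2, Usp18, Rtp4, Ifi27, Ifi27l2a and Parp14 had no entry. The core of the element was searched as GAAANNGAA on both strands (TTCNNTTTC when read on the other strand), which overlaps with the shorter IRF core AANNGAAA. It was present in 15 of the 29 matched genes (51.7%), against 9.76% of the 27025 genes in the table. The gamma-activated site, TTCNNNGAA, was present in 8 of the 29 (27.6%), against 9.55% of all genes. Of the stretches below, Ifit1, Ifit3, Oas1a, Oas3 and Rsad2 belong to effector genes that were called higher in CgA-KO livers. Stat2, Bst2 and Isg15 belong to genes that were not called different although their promoters hold the same core. Capitals mark the bases of a core, and longer runs in capitals are overlapping cores. Each stretch is read 5′ to 3′ along the strand of its gene.
Ifit1 (chr19:34640768-34640825, plus strand): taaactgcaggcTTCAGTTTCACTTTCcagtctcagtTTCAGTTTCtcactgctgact
Ifit3 (chr19:34583362-34583447, plus strand): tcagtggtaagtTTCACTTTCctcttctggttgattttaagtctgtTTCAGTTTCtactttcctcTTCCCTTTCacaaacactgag
Oas1a (chr5:120907526-120907557, minus strand): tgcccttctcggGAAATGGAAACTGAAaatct
Oas3 (chr5:120777708-120777746, minus strand): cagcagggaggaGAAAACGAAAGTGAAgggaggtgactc
Rsad2 (chr12:26456551-26456583, minus strand): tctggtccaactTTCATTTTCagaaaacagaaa
Stat2 (chr10:128270265-128270297, plus strand): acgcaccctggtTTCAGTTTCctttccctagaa
Bst2 (chr8:71537576-71537614, minus strand): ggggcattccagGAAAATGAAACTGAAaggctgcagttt
Isg15 (chr4:156200864-156200908, minus strand): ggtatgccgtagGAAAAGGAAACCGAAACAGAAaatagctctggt

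The Ifit3b promoter holds the same 86 letters as the Ifit3 stretch, at chr19:34607758-34607843 on the plus strand. Ifit1, Ifit3, Ifit3b and Isg15 each had 3 cores before the start, and Oas1a, Oas3 and Bst2 had 2. Distances from the start differed. The core nearest the start lay 6 bases before it in Oas1a, 58 in Isg15, 61 in Oas3, 76 in Ifit1, 94 in Ifit3, 111 in Rsad2, 116 in Bst2 and 213 in Stat2. The core was found both in genes that were called and in genes that were not. Of the 15 genes with a core, 9 were called higher in CgA-KO, and the median log2 fold change over all 15 was 1.85. Among the 14 matched genes without it, 10 were called higher, and the median over the 14 was 1.43. A match of letters describes the sequence and does not show that a factor binds there.

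**Figure D1:**
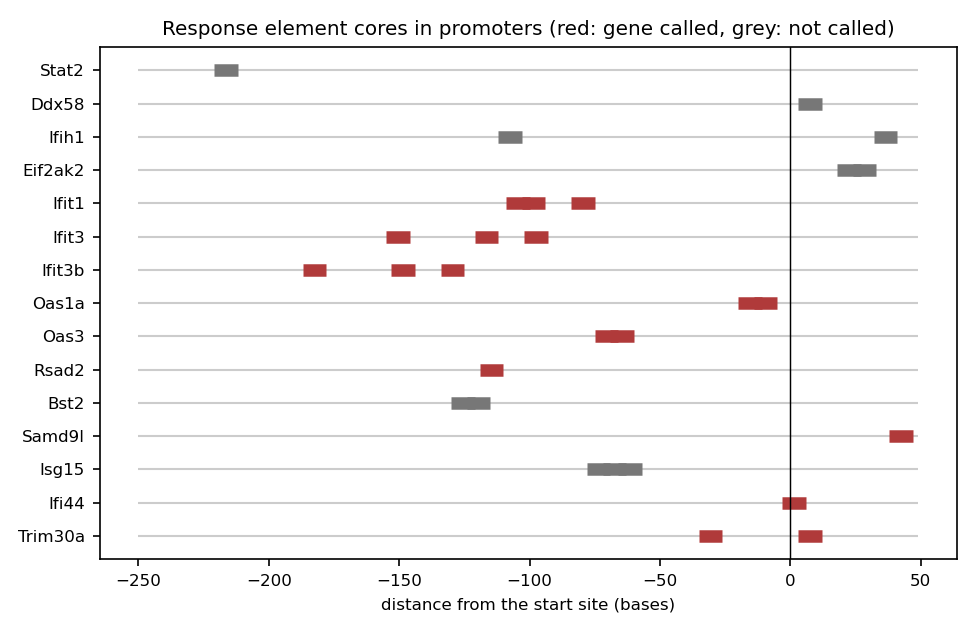
Position of the interferon-stimulated response element core (GAAANNGAA on either strand) in the promoters of the 15 genes that hold it, with the distance from the start site in bases on the x axis and 1 gene per row. Grey lines are the window searched, red blocks belong to the 9 genes called higher in CgA-KO livers and grey blocks to the 6 genes not called; cores lie on both sides of the start in both kinds.

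The libraries held 10558616, 31087453 and 25275594 counts in WT replicates 1, 2 and 3 and 19223595, 28672817 and 20615605 in CgA-KO replicates 1, 2 and 3. Levels are CPM, that is, counts per 1000000 counts of a library scaled with trimmed-mean (TMM) factors, and 3 counts, the floor of detection, came to between 0.0951 and 0.269 CPM. Chga itself had 0 counts in all 6 libraries, so it does not check the genotype labels. The 7 measured hepatocyte markers were abundant in every library and summed to between 47086 and 93197 CPM with 0 of 7 called by edgeR's test and 1 lower in CgA-KO at an unadjusted p under 0.05 and by DESeq2. WT replicate 1 was the shallowest library and stood apart among the WT livers in its B and plasma cell markers. CgA-KO replicate 2 stood apart in the sums of its neutrophil, monocyte and T and NK cell markers. Leaving out both libraries together left 26 members called, of which 24 were among the 26 called with all libraries.

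Most of the 39 interferon-stimulated genes were higher in the CgA-KO livers. The list was chosen with earlier results of these data known, so the counts below describe it and are no test of it. Of the 39 genes, 26 were called higher and 0 lower in CgA-KO than in WT by edgeR's quasi-likelihood test at a Benjamini-Hochberg adjusted p under 0.05. Over all 13867 genes tested, 12.4% were called in either direction, 8.6% higher and 3.84% lower. At an unadjusted p under 0.05, 32 were higher and 0 lower. With DESeq2, 28 of the 39 were called higher and 0 lower, against 10.8% higher of all genes. In 34 of the 39, every CgA-KO library lay above every WT library, against 19% of all genes tested. With 3 livers against 3, the exact two-sided permutation test cannot give a p below 0.1, the value of a gene whose groups do not overlap. The median log2 fold change of the 39 genes was 1.44, against -0.0075 over all genes tested. Of the calls over all genes, 69.1% were higher in CgA-KO, a share that became 86.6% when libraries were scaled by their size alone. That scaling moved the median of all genes to 0.26 and the median of the 39 to 1.74, with 27 of the 39 called. The liver is a mixture of cell types, and in such bulk RNA a lower number of cells of one type and less RNA per cell cannot be told apart.

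**Figure D2:**
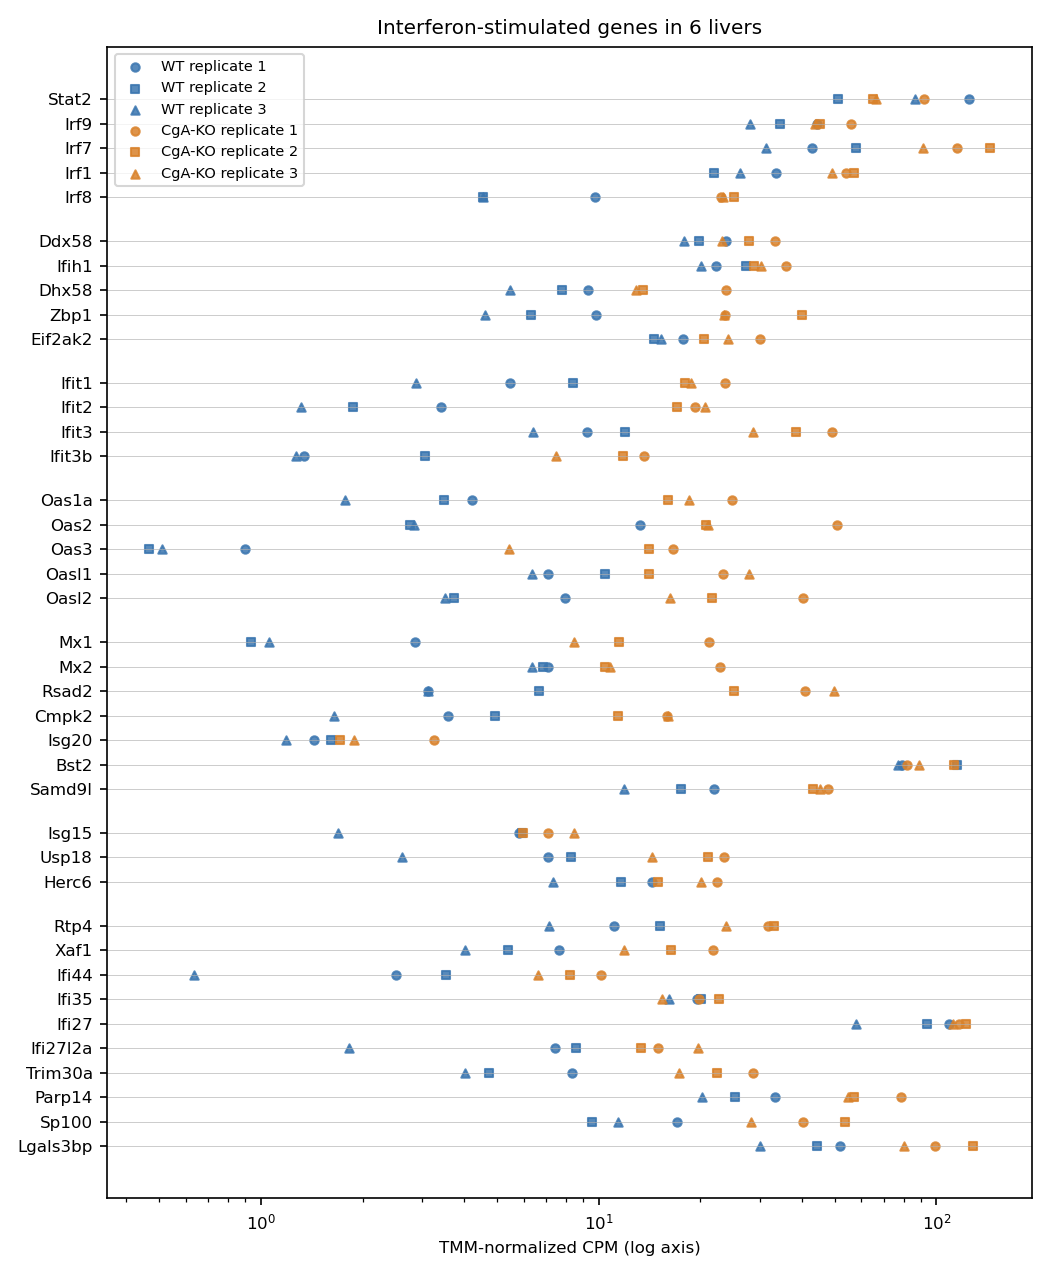
Level of each of the 39 genes in each of the 6 libraries, as TMM-normalized CPM on a log axis, with 1 gene per row grouped by role, WT in blue and CgA-KO in orange and 1 marker shape per replicate number. Orange points lie to the right of all blue points in 34 genes, and the groups overlap in Stat2, Irf9, Ddx58, Bst2 and Ifi35.

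The transcription factors of the response differed among themselves. STAT2 and IRF9 are subunits of ISGF3, IRF7 amplifies type I interferon production, IRF1 answers mainly to interferon gamma, and IRF8 is also a lineage factor of macrophages and dendritic cells. Of these 5 genes, Irf8, Irf7 and Irf1 were called higher. Irf8 was at 9.76, 4.55 and 4.53 CPM in WT replicates 1, 2 and 3 and at 23.0, 25.1 and 23.4 CPM in the CgA-KO replicates. Every CgA-KO liver lay well above every WT liver, and the log2 fold change was 1.95 ± 0.31 (SE, n = 3 per genotype, adjusted p = 0.00774). Irf7, chosen for naming after its values were seen, was at 42.9, 57.9 and 31.2 CPM in WT and at 115, 144 and 91.5 CPM in CgA-KO. Its log2 fold change was 1.41 ± 0.27 (adjusted p = 0.0145), and that of Irf1 was 0.97 ± 0.20 (adjusted p = 0.0162). Both rest on WT replicate 3, without which their adjusted p-values were 0.0714 and 0.0888, and Irf1 also missed the threshold when CgA-KO replicate 1 was left out (0.0540). Stat2 was at 125, 51.3 and 86.3 CPM in WT and at 91.6, 65.1 and 66.1 CPM in CgA-KO. The WT livers spanned the whole range of the CgA-KO livers, and the log2 difference of -0.24 had a 95% interval from -0.95 to 0.48 (adjusted p = 0.666). Without WT replicate 1, its highest library, that difference was 0.14. Irf9 was at 44.2, 34.4 and 28.1 CPM in WT and at 55.9, 45.2 and 43.6 CPM in CgA-KO, where only WT replicate 1 reached into the CgA-KO range. Its log2 difference was 0.44, with a 95% interval from -0.03 to 0.92 (adjusted p = 0.201).

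Of the 5 sensors, 2 were called higher, and Zbp1 had the largest difference. Zbp1, which senses nucleic acid in the Z conformation and can start necroptosis, was at 9.85, 6.30 and 4.62 CPM in WT and at 23.7, 40.0 and 23.5 CPM in CgA-KO. The groups did not overlap, and the log2 fold change was 2.09 ± 0.33 (adjusted p = 0.00745). Dhx58, which encodes LGP2, a regulator of the RIG-I-like receptors, was also called higher, with a log2 fold change of 1.16 ± 0.31 (adjusted p = 0.0412). That call was lost in 4 of the fits that left out 1 library, with adjusted p-values of 0.103 and 0.156 when WT replicate 2 or 3 was missing and of 0.135 and 0.0605 when CgA-KO replicate 1 or 2 was missing. The other 3 sensors were not called. Ddx58, which encodes RIG-I, was at 23.8, 19.8 and 17.9 CPM in WT and at 33.2, 27.9 and 23.2 CPM in CgA-KO, and WT replicate 1 lay just above CgA-KO replicate 3. Its log2 difference was 0.46, with a 95% interval from 0.01 to 0.91 (adjusted p = 0.165). Ifih1, which encodes MDA5, was at 22.2, 27.4 and 20.2 CPM in WT and at 35.9, 28.8 and 30.3 CPM in CgA-KO, so the groups were separate by a small margin. Its log2 difference was 0.45, with a 95% interval from 0.03 to 0.86 (adjusted p = 0.147). Eif2ak2 encodes PKR, the kinase that stops translation on double-stranded RNA, and was at 17.8, 14.6 and 15.2 CPM in WT and at 30.0, 20.5 and 24.2 CPM in CgA-KO. All CgA-KO livers lay above the WT livers, and the log2 difference was 0.65, with a 95% interval from 0.20 to 1.10 (adjusted p = 0.0651).

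The IFIT genes, whose proteins bind viral RNA that lacks the marks of cellular mRNA, were called higher in 4 of 4 cases, with a median log2 fold change of 2.29. They lie in the same stretch of chromosome 19 of GRCm38, from 34550694 at the start of Ifit2 to 34650009 at the end of Ifit1. Ifit2 was at 3.40, 1.87 and 1.31 CPM in WT and at 19.3, 17.0 and 20.6 CPM in CgA-KO. The CgA-KO livers were close together and far above the WT livers, and the log2 fold change was 3.16 ± 0.34 (adjusted p = 0.00296). Ifit3, whose promoter with 3 cores is printed above, was at 9.23, 12.0 and 6.40 CPM in WT and at 49.1, 38.5 and 28.6 CPM in CgA-KO. Its log2 fold change was 2.07 ± 0.28 (adjusted p = 0.00513). Ifit1 and Ifit3b had log2 fold changes of 1.85 and 2.51, with adjusted p-values of 0.0142 and 0.00806. Ifit3 and Ifit3b are near-identical copies, and 61.8% of the stretches of 31 bases in Ifit3 transcripts also occur in Ifit3b, so the split of reads between them is uncertain. Their summed level does not depend on that split. It averaged 11.1 ± 3.70 CPM over the WT livers and 49.7 ± 13.3 CPM over the CgA-KO livers (SD, n = 3), a ratio of 4.48. All 4 calls held whichever library was left out.

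The OAS genes make 2′-5′-linked oligoadenylates that activate RNase L, and the OAS-like genes encode related proteins with other antiviral roles. All 5 were called higher, with a median log2 fold change of 2.39. Oas3 had the largest difference of the 39 genes. It was at 0.896, 0.468 and 0.508 CPM in WT, between 10 and 12 counts per library, and at 16.6, 14.1 and 5.42 CPM in CgA-KO, between 121 and 446 counts. The groups were far apart although CgA-KO replicate 3 was lower than the other two, and the log2 fold change was 4.34 ± 0.50 (adjusted p = 0.00343). Oas2 was at 13.3, 2.77 and 2.84 CPM in WT and at 50.8, 20.8 and 21.0 CPM in CgA-KO. Replicate 1 of each genotype was the highest of its group, and the log2 fold change of 2.35 ± 0.64 passed narrowly (adjusted p = 0.0444). Without WT replicate 1 it was 3.49 (adjusted p = 0.00253), while the call was lost when any other library was left out, with adjusted p-values of 0.172, 0.0788 and 0.0571 for the absence of CgA-KO replicates 1, 2 and 3 and of 0.201 and 0.220 for that of WT replicates 2 and 3. Oas1a had a log2 fold change of 2.67 ± 0.34 (adjusted p = 0.00434), and 68.8% of its stretches of 31 bases occur in other genes, nearly all in Oas1g. Oas1a and Oas1g summed to 5.11 ± 2.68 CPM in the WT livers and 30.7 ± 9.19 CPM in the CgA-KO livers, a ratio of 6.01. Oasl2 and Oasl1 had log2 fold changes of 2.39 and 1.45 (adjusted p = 0.0110 and 0.0182). Without WT replicate 3 their adjusted p-values were 0.0720 and 0.0902, that of Oasl2 was 0.0745 when WT replicate 2 was left out, and that of Oasl1 was 0.0558 when CgA-KO replicate 1 was left out.

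**Figure D3:**
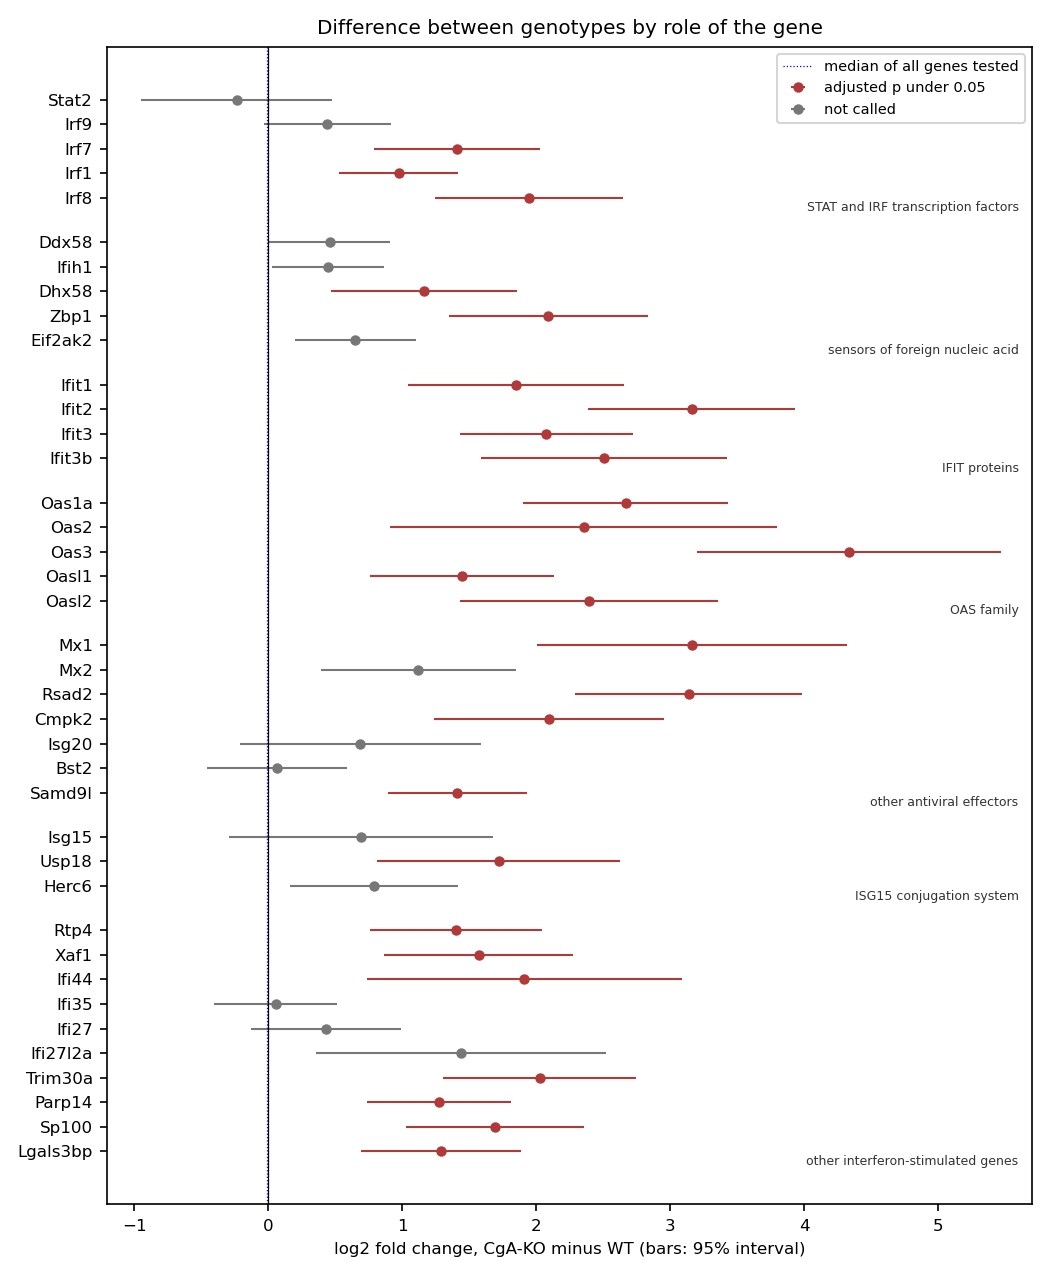
Log2 fold change of CgA-KO against WT for the 39 genes with its 95% interval on the x axis and 1 gene per row grouped by role, red where the adjusted p of edgeR's test was under 0.05 and grey where it was not, with a dotted line at the median of all 13867 genes tested. All 9 IFIT and OAS genes are red, Oas3 lies farthest to the right at 4.34, and Stat2 is the single gene left of 0.

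The other antiviral effectors split into genes with large differences and genes with none that could be called. Rsad2 encodes viperin, which makes a chain-terminating nucleotide, and Cmpk2, its neighbour 12751 bases away on chromosome 12, encodes the kinase that supplies the substrate. Rsad2 was at 3.13, 6.68 and 3.13 CPM in WT and at 40.8, 25.2 and 49.7 CPM in CgA-KO. The lowest CgA-KO liver was well above the highest WT liver, and the log2 fold change was 3.14 ± 0.37 (adjusted p = 0.00355). Cmpk2 rose with it, by 2.09 ± 0.38 on the log2 scale (adjusted p = 0.0119). Mx1, a dynamin-like GTPase whose copy in C57BL/6 mice is known to make no working protein, was at 2.87, 0.936 and 1.06 CPM in WT and at 21.3, 11.5 and 8.47 CPM in CgA-KO. Its log2 fold change was 3.16 ± 0.51 (adjusted p = 0.00803), and its adjusted p was 0.0551 without WT replicate 3. Mx2, which the GENCODE annotation lists as a polymorphic pseudogene in this strain, was at 7.08, 6.85 and 6.35 CPM in WT and at 22.8, 10.4 and 10.8 CPM in CgA-KO. The groups were separate, with CgA-KO replicate 1 far above the rest, and the log2 difference of 1.12 (95% interval 0.39 to 1.85) missed the threshold with an adjusted p of 0.0541. It passed with an adjusted p of 0.0494 when CgA-KO replicate 3 was left out, and with 0.0184 by DESeq2. About 8% of the stretches of 31 bases are shared between Mx1 and Mx2. Samd9l, a restriction factor of poxviruses, was called higher with a log2 fold change of 1.41 ± 0.23 (adjusted p = 0.00812).

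Bst2 encodes tetherin, which holds budding virus at the cell surface, and per length of transcript it was the most abundant of the 39 genes in both genotypes. It was at 79.3, 115 and 76.7 CPM in WT and at 82.1, 113 and 88.8 CPM in CgA-KO. The groups overlapped almost entirely, and the log2 difference was 0.07, with a 95% interval from -0.45 to 0.59 (adjusted p = 0.883). Its sign turned when WT replicate 3 was left out, to -0.046, or CgA-KO replicate 2, to -0.0395. Isg20, a 3′ to 5′ exonuclease, was at 1.43, 1.62 and 1.19 CPM in WT and at 3.25, 1.71 and 1.88 CPM in CgA-KO, between 16 and 70 counts per library. Its groups were separate by a narrow margin, and the log2 difference was 0.69, with a 95% interval from -0.21 to 1.58 (adjusted p = 0.289).

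ISG15 is a ubiquitin-like modifier, HERC6 is the mouse ligase that attaches it, and USP18 removes it and also dampens signalling at the receptor. Only Usp18 of these 3 was called. It was at 7.08, 8.30 and 2.63 CPM in WT and at 23.5, 21.0 and 14.4 CPM in CgA-KO, so the groups were well separate. Its log2 fold change was 1.72 ± 0.40 (adjusted p = 0.0256), a call that was lost by a small margin without WT replicate 2 (adjusted p = 0.0503), WT replicate 3 (0.0521), CgA-KO replicate 2 (0.0716) or CgA-KO replicate 1 (0.0823). Isg15 was at 5.82, 5.91 and 1.69 CPM in WT and at 7.10, 5.96 and 8.47 CPM in CgA-KO. WT replicate 3 was far below the other WT livers, which almost reached CgA-KO replicate 2. The log2 difference was 0.69, with a 95% interval from -0.29 to 1.68 (adjusted p = 0.331). Herc6 was at 14.4, 11.6 and 7.33 CPM in WT and at 22.4, 15.0 and 20.0 CPM in CgA-KO, with a log2 difference of 0.79 (95% interval 0.16 to 1.42, adjusted p = 0.0961). Without WT replicate 1 this difference was 1.06 and passed (adjusted p = 0.0406).

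Of the 10 remaining interferon-stimulated genes, 7 were called higher. Trim30a, a negative regulator of Toll-like receptor signalling, was at 8.33, 4.72 and 4.02 CPM in WT and at 28.7, 22.4 and 17.3 CPM in CgA-KO. The groups were far apart, and the log2 fold change was 2.03 ± 0.32 (adjusted p = 0.00740). The log2 fold changes of the other 6 were 1.91 for Ifi44, 1.69 for Sp100, 1.57 for Xaf1, 1.41 for Rtp4, 1.29 for Lgals3bp and 1.28 for Parp14. SP100 is a component of nuclear bodies, XAF1 a promoter of apoptosis, LGALS3BP a secreted glycoprotein and PARP14 an ADP-ribosyltransferase. All 6 lost their call without WT replicate 3, with adjusted p-values of 0.0693, 0.0578, 0.0737, 0.0598, 0.0823 and 0.0679 in that order. Xaf1 also lost it when WT replicate 2 (0.0546) or CgA-KO replicate 1 (0.0553) was missing, and Ifi44 lost it whichever library was left out, with adjusted p-values from 0.0501 (WT replicate 2 left out) to 0.131 (CgA-KO replicate 1 left out).

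The genes not called in this last group include the most abundant one. Ifi27, which encodes a mitochondrial protein, was at 109, 93.9 and 57.7 CPM in WT and at 116, 122 and 112 CPM in CgA-KO. The CgA-KO livers were close together and just above WT replicate 1, and the log2 difference was 0.43, with a 95% interval from -0.13 to 0.99 (adjusted p = 0.288). Ifi27l2a, its neighbour, was at 7.43, 8.55 and 1.82 CPM in WT and at 14.9, 13.4 and 19.7 CPM in CgA-KO. WT replicate 3 was the lowest by far, and the log2 difference was 1.44, with a 95% interval from 0.36 to 2.52 (adjusted p = 0.0831). DESeq2 and limma-voom called it, with adjusted p-values of 0.0267 and 0.0462. Both genes lie on chromosome 12 877138 bases or less from Chga, the gene targeted in the knockout. Ifi35, whose protein binds other interferon-induced proteins, was at 19.6, 20.0 and 16.2 CPM in WT and at 19.8, 22.8 and 15.4 CPM in CgA-KO. Its groups overlapped, and the log2 difference was 0.06, with a 95% interval from -0.40 to 0.52 (adjusted p = 0.888). The sign turned when WT replicate 3 was left out, to -0.042, or CgA-KO replicate 2, to -0.041.

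The genes that were called had a lower median level in WT livers than those that were not, but the ranges overlapped. WT means ran from 0.624 to 44.0 CPM in called genes and from 1.41 to 90.4 CPM in the others. The WT level is itself part of the fold change on which a call rests. In WT livers the median level of the 26 called genes was 6.14 CPM, against 18.6 CPM for the 13 others, and in CgA-KO livers the medians were 23.3 and 24.9 CPM. Across the 39 genes, Spearman's rho between the mean level and the log2 fold change was -0.51, a description over genes that share libraries and are not independent. Per length, in CPM per kilobase of exon, Bst2 was the highest, at 100.1 in WT and 105 in CgA-KO, followed by Ifi27 at 59.2 and 79.6. At the other end Oas3 was the lowest in WT, at 0.0883 CPM per kilobase, and reached 1.71 in CgA-KO. The order changed between the genotypes in the middle of the list. Rsad2 moved from place 30 of 39 in WT to place 14 in CgA-KO, and Oas1a from place 25 to place 11, while Stat2 moved from place 3 to place 9. Of the 13 genes not called, 6 had a 95% interval wholly above 0, and in 7 the upper bound was under 1 on the log2 scale.

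The livers also varied within a genotype, and did so across many of the genes. Log2 CPM, taken after adding a prior count of 2, were compared with the mean of the WT livers. The median difference of the 39 genes was 0.37, 0.11 and -0.42 in WT replicates 1, 2 and 3. It was 1.69, 1.63 and 1.19 in CgA-KO replicates 1, 2 and 3. WT replicate 3 was the lowest WT liver in 32 genes and the highest in 0, and WT replicate 1 was the highest in 23. Among the CgA-KO livers, replicate 1 was the highest in 23 genes, replicate 2 in 10 and replicate 3 in 6. Taken alone, CgA-KO replicates 1, 2 and 3 exceeded every WT liver in 36, 37 and 34 of the 39 genes. The share of all genes was not computed for single libraries. For the stricter condition that every CgA-KO library lay above every WT library it was 19%, which is not a matching share for these single-library counts. The count of calls depended on WT replicate 3, and fell to 12 without it, when 394 genes in all were called. It was 26 and 20 when WT replicates 1 and 2 were left out in turn, and 19, 22 and 25 for CgA-KO replicates 1, 2 and 3. A total of 12 members, Irf8, Zbp1, the 4 IFIT genes, Oas1a, Oas3, Rsad2, Cmpk2, Samd9l and Trim30a, were called in all of these fits.

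**Figure D4:**
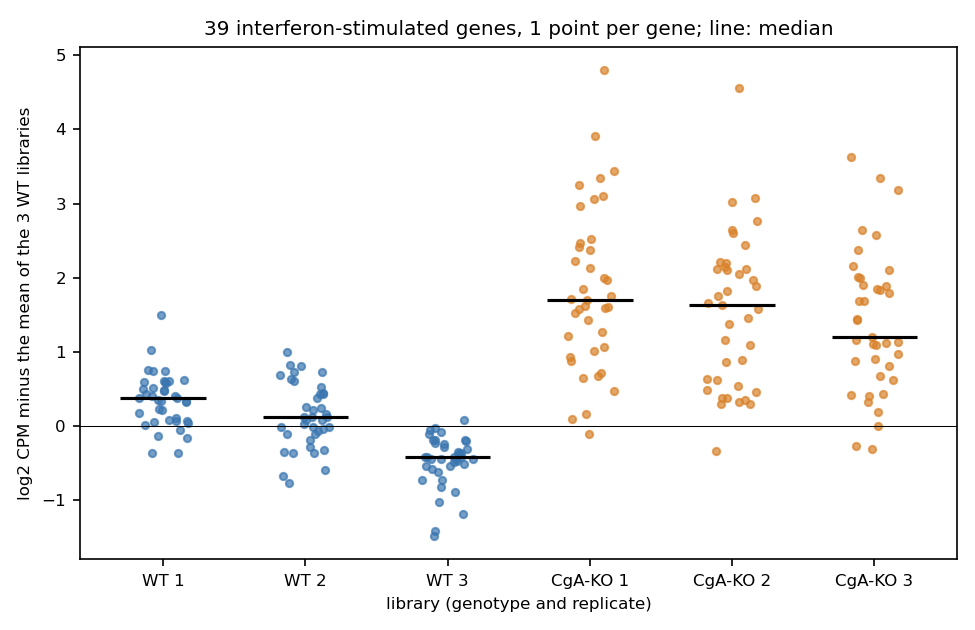
Log2 CPM of each of the 39 genes minus its mean over the 3 WT livers, on the y axis, for each library on the x axis, with 1 point per gene and a line at the median. The medians of the CgA-KO livers lie above those of all WT livers, and WT replicate 3 is the lowest. Points are drawn without a prior count, so the lines can differ from the medians in the text.

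The pathway upstream of these genes was measured with 49 further rows, of which 27 passed the filter. Of the 27, 8 were called higher and 0 lower by edgeR's test, against 8.6% and 3.84% of all genes. At an unadjusted p under 0.05 these counts were 13 and 1, and DESeq2 called 9 higher and 0 lower. Transcripts of the ligands were hardly present. None of the 18 type I interferon genes could be tested, and 16 had 0 counts in every library. Ifnb1 had 0 counts in each WT library and 1, 4 and 0 in the CgA-KO libraries, and Ifnk had 2 counts in CgA-KO replicate 3. Ifng, which encodes interferon gamma, was at 0.269, 0.0425 and 0.0847 CPM in WT and at 0.325, 0.507 and 0.179 CPM in CgA-KO, from 1 to 16 counts, and was not tested. At this depth a difference in the ligands was not detectable.

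The receptor of type I interferon was not called. Ifnar1 was at 27.9, 29.9 and 33.5 CPM in WT and at 40.6, 35.7 and 34.3 CPM in CgA-KO, with a log2 difference of 0.28 (95% interval -0.10 to 0.65, adjusted p = 0.304). Ifnar2 had a log2 difference of 0.34 (-0.12 to 0.80, adjusted p = 0.310) and its groups overlapped. The kinases were not called either, with log2 differences of 0.54 for Jak1 (0.07 to 1.00, adjusted p = 0.121) and -0.09 for Tyk2 (-0.68 to 0.50, adjusted p = 0.850).

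Genes that act before interferon is made were called in 4 of 12 tested. Tlr7, the endosomal receptor of single-stranded RNA, was at 1.79, 0.681 and 0.339 CPM in WT and at 18.6, 7.83 and 15.7 CPM in CgA-KO. This difference was as large as that of the top effectors, with a log2 fold change of 4.03 ± 0.58 (adjusted p = 0.00554). Sting1, the adaptor of DNA sensing, was at 3.94, 1.4 and 1.31 CPM in WT and at 12.8, 11.0 and 7.26 CPM in CgA-KO (log2 fold change 2.28 ± 0.45, adjusted p = 0.0157). Cgas, which encodes the DNA sensor that signals to it, and Irf5 had log2 fold changes of 1.73 and 1.25 (adjusted p = 0.0381 and 0.00832). Mavs, the adaptor of the RIG-I-like sensors, was not called, but every CgA-KO library lay below every WT library, with a log2 difference of -0.48 (95% interval -0.87 to -0.08, adjusted p = 0.110). Among the negative regulators, Socs3 and Ptpn6 were called higher, by 1.26 and 1.56 on the log2 scale (adjusted p = 0.0380 and 0.0225). Ifngr1, a chain of the interferon gamma receptor, and Il10rb, a chain shared by the receptors of interleukin 10 and type III interferon, rose by 1.67 and 1.38 (adjusted p = 0.00622 and 0.00581). The 8 calls became 4 and 3 when WT replicates 2 and 3 were left out in turn and 5 in each case for CgA-KO replicates 1 and 2, and Tlr7, Ifngr1 and Il10rb were called in all fits that left out 1 library. In the fits that lost them, adjusted p-values reached 0.144 for Cgas, 0.0745 for Sting1, 0.131 for Socs3, 0.104 for Ptpn6 and 0.0523 for Irf5.

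Markers of several types of liver leukocytes, though not those of B and plasma cells, differed in the same direction as the interferon-stimulated genes. Kupffer cells are the resident macrophages of the liver. Against 8.6% of all genes tested, 10 of their 11 markers were called higher in CgA-KO. The exception was Marco, at 1.34, 4.47 and 14.3 CPM in WT and at 0.139, 57.4 and 1.08 CPM in CgA-KO. Its level in CgA-KO replicates 1 and 3 lay below every WT liver. The summed level of the 11 markers ranged from 134 to 349 CPM in WT and from 1455 to 2079 CPM in CgA-KO. The ratio of means was 8.63. For comparison, the 39 interferon-stimulated genes summed to between 533 and 806 CPM in WT and between 1185 and 1496 CPM in CgA-KO, a ratio of 1.99. Within each genotype replicate 1 had the highest sum of both lists and replicate 3 the lowest of both. Monocyte markers were called in 4 of 6, T and NK cell markers in 6 of 10 tested and neutrophil markers in 3 of 4 tested, all higher. The neutrophil list had 8 genes, and those that did not pass the filter were not tested. Together the 8 held 40, 244 and 62 counts in WT replicates 1, 2 and 3. In CgA-KO replicates 1, 2 and 3 they held 637, 11733 and 770 counts. Conventional dendritic cell markers were called higher in 2 of 5 and stellate cell markers in 3 of 6. The called T and NK cell markers were Cd3d, Cd3e, Cd3g, Cd8a, Thy1 and Nkg7. Cd4, Cd8b1, Klrb1c and Gzma were not called, and Ncr1 was not tested. CgA-KO replicate 2 had the highest sums of monocyte, T and NK cell and neutrophil markers, at 177, 190 and 372 CPM. The other CgA-KO livers had at most 59.9, 57.8 and 34.5 CPM. Most of that monocyte sum was Ly6c2, at 90.8 CPM, and Chil3, at 33.9 CPM. Fcgr1 was at 18.2 CPM there, against 16.1 CPM in CgA-KO replicates 1 and 3. Cd4 went the other way, at 1.97 CPM against 26.3 and 16.5 CPM, and Klrb1c, Ncr1 and Gzma were not highest in CgA-KO replicate 2 either. The neutrophil gene Mpo had 0 counts in every WT liver and in CgA-KO replicate 1.

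Of 6 sinusoidal endothelial markers 1 was called higher and 1 lower, while 3 were higher and 1 lower at an unadjusted p under 0.05 and by DESeq2. Of 7 B and plasma cell markers 0 were called and of 3 tested markers of plasmacytoid dendritic cells, known as strong producers of type I interferon, 0 were called. For the B cell and plasmacytoid lists the count was also 0 at an unadjusted p under 0.05 and with DESeq2. The plasmacytoid markers summed to between 22.9 and 43.8 CPM in WT and between 25.9 and 35.4 CPM in CgA-KO. Most of that sum was Tcf4, at 22.0 to 32.4 CPM in WT and 22.2 to 30.8 CPM in CgA-KO. The tested markers were Tcf4, Runx2 and Spib. Klk1, Cox6a2, Ccr9 and the defining marker Siglech, at most 1.61 CPM, did not pass the filter. The list therefore cannot show whether plasmacytoid dendritic cells differed. The B and plasma cell markers summed to 55.6 CPM in WT replicate 1 and 56.4 CPM in CgA-KO replicate 1, against 8.47 to 16 CPM in the other livers. Over all lists, 29 of 65 tested markers were called higher and 1 lower, against 8.6% and 3.84% of all genes tested. The number of markers called higher was 12 when WT replicate 2 or 3 was left out and 18 when CgA-KO replicate 2 was. The part of these cell types in the difference of the interferon-stimulated genes was not tested.

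**Figure D5:**
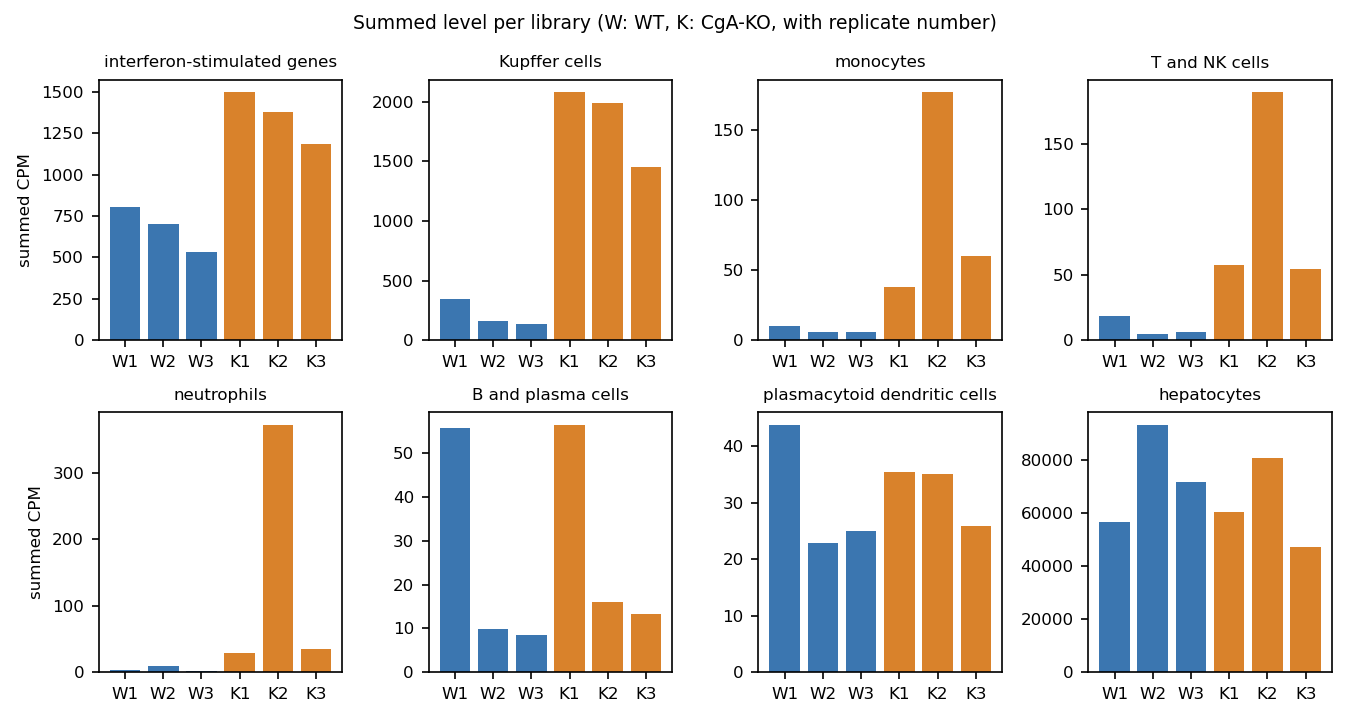
Summed CPM of the 39 interferon-stimulated genes and of 7 lists of cell type markers, with 1 panel per list, 1 bar per library on the x axis (W for WT, K for CgA-KO, with the replicate number) and linear y axes that start at 0 and differ between panels. The interferon-stimulated genes and the Kupffer cell markers are higher in every CgA-KO liver than in every WT liver, while neutrophil markers are highest in CgA-KO replicate 2 and hepatocyte markers overlap.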

How the data were processed

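Poly(A) RNA of 6 mouse livers was sequenced, and per the labels the 3 mice of each genotype were separate animals. The authors quantified reads at the transcript level with Salmon 1.4.0 against the GRCm38 transcriptome. The deposited values are whole-number counts per gene symbol, without normalization, and how transcripts were summed to genes is not given in the sources used here. All 6 columns were mapped to a sample by name. The labels name no batch. Replicates differed by more than sampling noise (chi-square per degree of freedom 29.9 to 190).

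The test was that of edgeR 4.0.16 (R 4.3.3): filterByExpr with a minimum count of 10 left 13867 genes, followed by TMM factors, robust quasi-likelihood fits on genotype, a two-sided test and Benjamini-Hochberg adjustment over all genes tested, with calls at an adjusted p under 0.05. Values after ± are SE for log2 fold changes and SD for CPM. The fits were tested on simulated counts with 200 large planted changes and the same spread for every gene. That check does not cover smaller changes or the spread between these livers. Positions and exon lengths are those of GENCODE M21, and promoters those of RefSeq. Named genes were, in each role group, the highest in CPM, the smallest p, the largest change and every gene not called. A gene of the planned lists is not reported here. The members and lists were chosen with earlier results of these data known. The alternatives tried were a replicate block, limma-voom (limma 3.58.1), DESeq2 1.42.0, upper-quartile factors or library size alone for scaling, filters that kept every gene with a count or asked for 10 counts in each library, a threshold of 0.01 and leaving out each library. Leaving out WT replicate 1 and CgA-KO replicate 2 together, and the sums of genes that share sequence, were chosen after seeing the data. Floors of detection cover counting error only.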

Additional observations from a re-analysis of the deposited data

How the results depend on the processing

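Of the 39 genes, between 25 and 28 were called higher, and 0 lower, under every alternative that kept all 6 libraries and the threshold of 0.05. Oas2 was the call most often lost. At an adjusted p under 0.01, 11 of the 39 genes, 4 of the pathway genes, 12 of the markers and 360 genes in all were called, and DESeq2 called 2592 genes in all. When 1 library was left out, the counts ranged from 12 to 26 for the 39 genes, from 3 to 9 for the pathway genes, from 13 to 31 for the markers and from 394 to 2126 for all genes. Small differences changed sign. Stat2 ranged from -0.51 to 0.14, Bst2 from -0.046 to 0.28, Ifi35 from -0.042 to 0.22 and Tyk2 from -0.29 to 0.13 when 1 library was left out. Tyk2 was at 0.14 with library size alone. Without WT replicate 1 and CgA-KO replicate 2 together, Stat2 was at 0.24, Bst2 at -0.11 and Tyk2 at 0.18. The share of matched genes with the shorter IRF core was 72.4%, against 26.7% of all genes. With only the window before the start, it was 62.1% for the IRF core, against 23.9%. For the core GAAANNGAA in that window it was 37.9%, against 8.18%. The cause of these changes was not tested, apart from the fewer libraries or the stricter threshold themselves.

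Replicate numbers do not pair the mice by the labels. Deviations of same-numbered libraries correlated by 0.20, 0.01 and -0.07 over genes, and WT replicate 2 correlated best with CgA-KO replicate 3. With a replicate block, 25 of the 39 genes and 1498 genes in all were called, and Oasl1 was the member lost. Of the pathway genes Socs3 lost its call with the block (adjusted p = 0.0853) and with limma-voom (0.0501).

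Depth limits the ligands most, since a count of 0 in WT replicate 1, the shallowest library, allows up to 0.269 CPM for counting error only.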

Other observations

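Relatives of the 39 genes that are not among them were examined after the data had been seen, as 31 further genes of the IFIT, OAS, TRIM30, SP, PARP, IRF and RTP families and others, with Irf3 and Irf5 also counted among the pathway genes above. Of these, 23 could be tested and 7 had 0 counts in every library. A total of 6 were called higher in CgA-KO livers and 0 lower by edgeR's quasi-likelihood test, against 8.6% and 3.84% of all genes tested. At an unadjusted p under 0.05, 12 were higher and 1 lower, and DESeq2 called 6 higher and 1 lower. Ddx60, an RNA helicase that assists RIG-I, was at 4.66, 6.89 and 2.63 CPM in WT replicates 1, 2 and 3 and at 19.2, 10.7 and 12.1 CPM in the CgA-KO replicates (log2 fold change 1.56 ± 0.38, adjusted p = 0.0292). Sp140, a chromatin reader expressed in leukocytes, was at 10.9, 4.38 and 3.01 CPM in WT and at 25.7, 19.1 and 13.7 CPM in CgA-KO (log2 fold change 1.71 ± 0.46, adjusted p = 0.0423). The others were Oas1g, Irf5, Trim30c and Ifit1bl1. Trim30c had 1, 2 and 2 counts in WT replicates 1, 2 and 3 and 31, 15 and 14 in the CgA-KO replicates. Ifit1bl1 had 7, 9 and 7 counts in WT and 92, 416 and 34 in CgA-KO. Neither reached 10 counts in any WT library, so both passed the filter through the CgA-KO livers. A call of lower was therefore not open to them.

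Parp9 and Dtx3l encode partners that act with each other and share a promoter, and neither was called. Parp9 was at 52.6, 53.3 and 37.0 CPM in WT and at 59.7, 48.7 and 55.9 CPM in CgA-KO (log2 difference 0.20, 95% interval -0.25 to 0.65, adjusted p = 0.549). Dtx3l was at 49.5, 46.9 and 40.1 CPM in WT and at 63.7, 64.2 and 52.9 CPM in CgA-KO (log2 difference 0.41, 95% interval 0.01 to 0.81, adjusted p = 0.166).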
